A study of Mus musculus with 13 samples.

Results

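The salivary acinar secretory product genes were described in polyA RNA of mouse tongue epithelium as 10 genes listed by symbol, namely Smgc, Dcpp1, Dcpp2, Dcpp3, Amy1, Mucl1, Mucl2, Prol1, Pip and Agr2. All 10 had a row with reads among the 24972 genes of the authors' deposited table. The H3K36M group held 6 samples that carried Krt14-Cre and the LSL-H3K36M allele, and the control group held 7 samples that carried the same LSL-H3K36M allele without Cre. In H3K36M, a mutant histone H3, lysine 36 is replaced by methionine, and Cre driven by the keratin 14 promoter acts in cells of stratified epithelia and in their descendants. Cre was present in the H3K36M samples alone, so effects of Cre and of the mutant histone cannot be told apart. No age or sex was used here, and the labels do not tie the samples to named animals or cultures, so p-values measure only the spread between these samples. The deposited values are group levels fitted by the authors, not values of samples, and the 13 samples are therefore given as 2 levels with a standard error (SE) of the difference.

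Salivary glands are built of acini, which make and secrete the proteins and mucins of saliva, and of ducts, which modify and carry it. Serous acinar cells make amylase and other enzymes, mucous acinar cells make heavily glycosylated mucins, and serous cells that cap mucous acini form demilunes. Minor salivary glands also lie within the mouse tongue, beneath and between its stratified surface epithelium and muscle.

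The tandem Dcpp copies and the genes Agr2 and Smgc carry the results below, and their promoter windows are shown for that reason. RefSeq (GRCm38.p6) held promoter windows for 9 of the 10 genes, each with 250 bases before and 50 bases after the transcription start. In the Dcpp windows, capitals mark bases that are not shared by all 3 copies where the 3 windows align. In the Agr2 and Smgc windows, capitals mark matches to the motifs named after them. All 5 windows lie on the plus strand.
Dcpp1, chr17:23880626-23880925: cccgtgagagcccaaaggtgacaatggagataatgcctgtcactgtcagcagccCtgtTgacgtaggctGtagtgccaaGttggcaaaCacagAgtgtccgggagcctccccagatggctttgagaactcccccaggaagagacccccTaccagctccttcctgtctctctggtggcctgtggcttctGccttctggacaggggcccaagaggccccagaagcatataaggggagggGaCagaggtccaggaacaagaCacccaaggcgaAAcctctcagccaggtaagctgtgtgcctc
Dcpp2, chr17:23898472-23898771: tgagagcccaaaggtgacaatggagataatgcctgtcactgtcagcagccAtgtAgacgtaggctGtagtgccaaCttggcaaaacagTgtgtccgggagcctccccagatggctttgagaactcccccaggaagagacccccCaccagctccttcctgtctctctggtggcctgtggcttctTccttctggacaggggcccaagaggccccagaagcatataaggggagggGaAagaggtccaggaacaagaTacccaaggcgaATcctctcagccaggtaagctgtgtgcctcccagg
Dcpp3, chr17:23917208-23917507: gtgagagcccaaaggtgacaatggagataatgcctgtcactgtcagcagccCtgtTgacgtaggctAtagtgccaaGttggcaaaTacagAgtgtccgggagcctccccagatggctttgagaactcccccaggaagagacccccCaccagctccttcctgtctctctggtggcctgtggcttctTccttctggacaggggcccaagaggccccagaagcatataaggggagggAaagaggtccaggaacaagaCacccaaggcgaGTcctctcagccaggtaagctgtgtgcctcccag
Agr2, chr12:35992675-35992974: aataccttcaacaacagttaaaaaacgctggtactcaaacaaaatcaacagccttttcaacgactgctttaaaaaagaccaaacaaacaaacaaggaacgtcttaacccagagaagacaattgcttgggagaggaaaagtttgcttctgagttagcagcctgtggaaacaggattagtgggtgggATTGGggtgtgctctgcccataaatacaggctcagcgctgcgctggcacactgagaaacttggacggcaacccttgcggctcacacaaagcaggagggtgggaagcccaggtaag
Smgc, chr15:91838078-91838377: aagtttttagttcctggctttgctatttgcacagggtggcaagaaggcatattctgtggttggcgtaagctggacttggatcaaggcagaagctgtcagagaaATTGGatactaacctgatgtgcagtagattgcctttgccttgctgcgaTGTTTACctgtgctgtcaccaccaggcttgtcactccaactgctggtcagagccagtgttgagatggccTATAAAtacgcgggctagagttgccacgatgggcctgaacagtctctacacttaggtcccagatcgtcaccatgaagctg
Over 296 aligned positions, the 3 Dcpp windows were identical at 283, had a substitution at 11 and a gap at 2. Motifs were searched on both strands by their letters. The TATA box letters TATAAA occurred in the windows of Smgc, Amy1 and Pip and in 13.6% of all 32817 promoter windows of this length. CCAAT occurred in Smgc, Agr2 and Mucl2 and in 37.4% of all windows, and the forkhead letters TGTTTAC in Smgc and Prol1 and in 3.65% of all windows. The E-box CAGCTG and the XBP1 letters TGACGTGG matched none of these genes, against 16.3% and 0.676% of all windows, and the ETS letters GGAAGT matched Mucl2, against 23.8%. A match describes letters only.

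Of the 10 genes, Agr2 and Smgc were higher in H3K36M past an adjusted p below 0.05 in the authors' deposited table, and none was lower past it. The Smgc call rests on a fit to a control group at 0, described below. The 3 Dcpp genes had higher and Amy1 had a lower fitted level in H3K36M, and none of these 4 passed the threshold. Mucl1 had nearly equal levels, and Mucl2, Pip and Prol1 had no adjusted p. Over all 17449 genes with an adjusted p, 3.43% were past the threshold, with 1.85% higher and 1.59% lower in H3K36M (DESeq2 by the authors). An adjusted p was available for 7 of the 10 genes, and 5 of these 7 had an unadjusted p below 0.05, against 9.82% of all tested genes. Those 5 include Amy1, which was lower, Smgc, and the related copies Dcpp2 and Dcpp3. The 10 genes were chosen with earlier results of these data known, so these shares do not test the set. In such bulk samples, more cells of a type and more RNA per cell cannot be told apart.

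**Figure D1:**
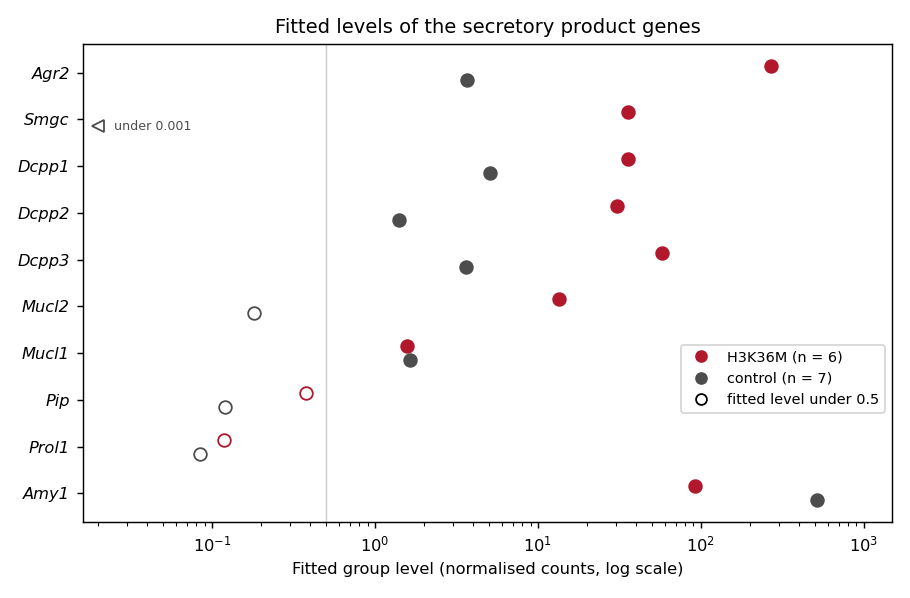
Fitted group levels of the 10 genes in normalised counts on a log axis, with H3K36M in red above control in grey for each gene. Open circles are fitted levels under 0.5, and the triangle marks the control level of Smgc, under 0.001. Agr2, Smgc and the Dcpp genes lie to the right in H3K36M, and Amy1 lies to the right in control.

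Agr2 encodes a protein disulfide isomerase of the endoplasmic reticulum that mouse intestinal goblet cells need to make mucin. It lies on chromosome 12 (35992907 to 36004087, GRCm38), with 8 exons in the transcript used for its length. Agr2 had a fitted level of 269 normalised counts in H3K36M, against 3.65 in control, in the authors' deposited table. These levels stand for about 1719 reads over the H3K36M libraries and about 26.1 over the control libraries. The log2 fold change of Agr2 in the authors' deposited table was 6.20 (SE 1.31, 95% interval 3.63 to 8.78, adjusted p = 0.00021), a ratio of 73.7. Agr2 was past the threshold under each of the alternatives that gave it an adjusted p, with values between 5.34e-05 and 0.000257. The related gene Agr3, 1 of 4 tested genes within 100 kb of Agr2, had a mean of 0.429 normalised counts, and none of those 4 was called in the authors' deposited table.

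Smgc encodes submandibular gland protein C, a secreted product of the developing mouse submandibular gland, and shares its locus with the mucin gene Muc19. It lies on chromosome 15 (91838265 to 91861438, 18 exons). The fitted level of Smgc was 35.6 normalised counts in H3K36M, about 227 reads, against 7.92e-06 in control in the authors' deposited table, where no control read was apparent. Against a floor of 3 reads over the control group, Smgc was at least 84.7-fold higher in H3K36M. The deposited log2 fold change of 22.10 (SE 3.0, adjusted p = 8.99e-11) in the authors' deposited table is a fitted value for a group at 0 and not a measured ratio. With the bound of 6.40 in its place and the same SE, which was tried only once the values were known, the adjusted p was 0.406. That SE comes from the same fit to a group at 0, so this p does not test the Smgc difference. The deposited adjusted p of 8.99e-11 (DESeq2 by the authors) rests on the fitted 22.10 over the same SE. It therefore does not measure the strength of the Smgc difference either. Of 5 tested genes with a fitted group level under 0.001, 5 passed in the authors' deposited table and 0 passed with the fold at its bound.

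The summed count of Smgc matched no single library. Where a single library holds all reads of a gene, their sum divides evenly by what 1 read is worth in that library, and the sum of Smgc, 214 normalised counts, did not for any library within a relative tolerance of 1e-09. Muc19, a gel-forming mucin of mucous acinar cells, had a level of 160 normalised counts in H3K36M, against 0.576 in control, in the authors' deposited table (log2 fold change 8.12, SE 1.5, adjusted p = 1.02e-05). Among the 2903 windows of 75 bases, the read length, in the Smgc transcript, 19 also occurred in Muc19. These shared windows made up 0.654% of the Smgc transcript and 0.21% of that of Muc19, so few reads of the pair are identical by sequence. Whether the authors' counting split reads by exon is not given in the sources used here.

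**Figure D2:**
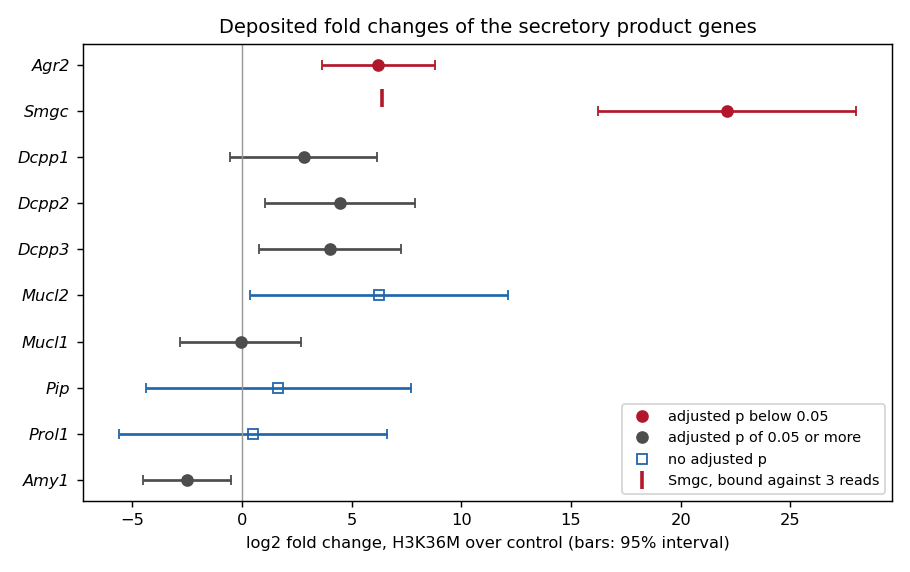
Deposited log2 fold changes of the 10 genes, H3K36M over control, with 95% intervals from the deposited SE. Red points were past an adjusted p below 0.05, grey points were not, and blue squares had no adjusted p. The red tick at 6.40 is the bound for Smgc, far below its fitted value of 22.10.

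Dcpp1, Dcpp2 and Dcpp3 encode demilune cell and parotid protein, a secreted protein of sublingual demilunes and of the parotid gland in mice, and lie in tandem on chromosome 17. The genes span 23880876 to 23882853, 23880880 to 23900788 and 23917458 to 23919441 in GENCODE M21 (GRCm38), where 1 Dcpp2 transcript starts inside Dcpp1. In the authors' deposited table, Dcpp1 had 35.9 normalised counts in H3K36M, against 5.08 in control. Dcpp2 had 30.7 in H3K36M, against 1.40 in control, and Dcpp3 had 58.0 in H3K36M, against 3.61 in control, in the authors' deposited table. All 3 copies thus had the higher fitted level in H3K36M. Their log2 fold changes in the authors' deposited table were 2.82 (SE 1.71, 95% interval −0.53 to 6.17) for Dcpp1, 4.46 (SE 1.74, 1.04 to 7.88) for Dcpp2 and 4.0 (SE 1.66, 0.76 to 7.25) for Dcpp3. None passed in the authors' deposited table, with adjusted p of 0.705, 0.192 and 0.254 and unadjusted p of 0.0985, 0.0105 and 0.0157 (DESeq2 by the authors). The differences of fold between the copies were not tested, since they need values of single samples.

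The 3 Dcpp genes are not independent measurements. Their transcripts were 93.4% identical between Dcpp1 and Dcpp3, 91.8% between Dcpp2 and Dcpp3 and 89.95% between Dcpp1 and Dcpp2. Of windows of 75 bases, 32.2% of those in Dcpp1, 18.1% of those in Dcpp2 and 28.7% of those in Dcpp3 also occurred in another copy. A read from such a window cannot be assigned to 1 copy by its sequence, and the sources used here do not say how the authors counted it. The sum of the 3 levels in the authors' deposited table does not depend on the split between copies where such reads were kept. It was 125 normalised counts in H3K36M, against 10.1 in control, a ratio of 12.4 with no test. Within 100 kb of Dcpp2, 8 other genes were tested and 1, the serine protease gene Prss41, was higher in H3K36M in the authors' deposited table.

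Amy1, the gene of salivary amylase, which digests starch, had the lower fitted level in H3K36M, unlike Agr2 and the Dcpp genes. It lies on chromosome 3 (113555710 to 113606699, minus strand, 11 exons in the transcript used). Amy1 had 91.4 normalised counts in H3K36M, against 515 in control, in the authors' deposited table. The log2 fold change was −2.49 (SE 1.02, 95% interval −4.50 to −0.49, unadjusted p = 0.0147), and the adjusted p of 0.245 in the authors' deposited table did not pass. Under the alternatives, that adjusted p ran between 0.0881 and 0.28. The pancreatic amylase genes Amy2a5 and Amy2b each had 1 read in 1 library, in control for Amy2a5 and in H3K36M for Amy2b. No window of 75 bases in the Amy1 transcript used here occurred in a pancreatic amylase transcript or in Rnpc3, the gene that overlaps Amy1 on the same strand.

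Muscle transcripts were lower in H3K36M in their fitted levels, as Amy1 was. The 8 skeletal muscle markers summed to 22896 normalised counts in H3K36M, against 82676 in control, and by the authors' deposited table the lower level was in H3K36M for 7 of 8. Over all 17449 tested genes, 9879 had the higher level in H3K36M. None of the 8 passed, and 0 had an unadjusted p below 0.05 (DESeq2 by the authors). The fast myosin Myh4 stood at −2.10 (SE 1.20) and the troponin Tnnt3 at −1.98 (SE 1.07) on the log2 scale in the authors' deposited table. Their part in the Amy1 difference was not tested.

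Mucl2 encodes a small mucin-like protein first named salivary protein 1, and all of its reads lay in 1 H3K36M library. Its summed normalised count of 82.1 over the 13 libraries equals 80 reads of a library with a relative depth of 0.975, within a relative tolerance of 1e-09. The other 12 libraries then held no Mucl2 read, and the H3K36M samples without that library would be at 0 like the control samples. The authors' deposited table set Mucl2 aside as an outlier and gave it no p. It listed fitted levels of 13.5 normalised counts in H3K36M, against 0.18 in control, and a log2 fold change of 6.23 (SE 3.0). With p taken from its statistic, the adjusted p of Mucl2 over all genes with reads was 0.482. The fold of 6.23 and that statistic rest on a fitted level of 0.18 for a control group without reads. They therefore give neither a measured ratio nor a test of the Mucl2 difference.

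Mucl1, a neighbouring mucin-like gene on chromosome 15 that RefSeq lists as a transcribed pseudogene and GENCODE as protein-coding, had 1.56 normalised counts in H3K36M, against 1.64 in control, in the authors' deposited table. These are about 9.97 and 11.7 reads over the H3K36M and the control libraries. Its log2 fold change of −0.07 had a 95% interval from −2.82 to 2.69 in the authors' deposited table, which includes changes of several-fold in either direction. No window of 75 bases was shared by the transcripts of Mucl1 and Mucl2, which were 63.4% identical when aligned.

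Pip, the prolactin-inducible protein of saliva and tears, and Prol1, whose older name Muc10 is that of a mucin of the mouse submandibular gland, were at the limit of detection. Prol1 had 1 read in all 13 libraries, in an H3K36M library. Its deposited levels of 0.119 normalised counts in H3K36M and 0.084 in control show that fitted levels this low are not group means in the authors' deposited table. Pip had a summed normalised count of 3.11 over all 13 libraries, which did not divide evenly for any library. Both are below or near the floor of 3 reads, no fold is given, and the authors' deposited table gave neither an adjusted p.

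Per kilobase of transcript, Agr2 had the highest level in H3K36M, at 344 normalised counts per kb, against 4.66 in control. Next in H3K36M came Dcpp3 at 95.05, Dcpp1 at 58.3, Dcpp2 at 52.1, Amy1 at 46.1, Mucl2 at 21.1 and Smgc at 12.0 normalised counts per kb, with Mucl1 at 2.06 and Pip and Prol1 under 1. In control, Amy1 stood first at 260 normalised counts per kb, ahead of Dcpp1 at 8.23, Dcpp3 at 5.92, Agr2 at 4.66, Dcpp2 at 2.37 and Mucl1 at 2.16. The order was not tested.

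Summed over the 10 genes, the fitted levels were nearly equal, at 537 normalised counts in H3K36M and 531 in control, but their makeup differed. Agr2 gave 50.2% of that sum in H3K36M and 0.688% in control, whereas Amy1 gave 17.0% in H3K36M and 97.0% in control. The 9 genes without Amy1 summed to 445 normalised counts in H3K36M, against 15.8 in control, a ratio of 28.2 with no test. Amy1, left out as the gene of the highest level, was itself lower in H3K36M. Agr2 alone gave 269 of the 445 in H3K36M and 3.65 of the 15.8 in control. For scale, 6 markers of the tongue's stratified epithelium, among them the keratins Krt4 and Krt13, summed to 1718402 normalised counts in H3K36M and 2066569 in control.

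The spread between libraries implied by the deposited SE was wider for Agr2, Amy1 and the Dcpp genes than the median over tested genes. From the deposited SE, the implied coefficient of variation (CV) between libraries of a group was 1.60 for Agr2, 1.27 for Amy1, 1.56 for Mucl1 and 2.10, 2.09 and 2.03 for Dcpp1, Dcpp2 and Dcpp3. Its median over the 13580 tested genes whose mean reached 10 normalised counts was 0.459, and 95% of them lay at or under 1.30. A CV above that of Agr2 was found in 1.24% of those genes and above that of Dcpp3 in 0.295%. Mucl1, with a mean of 1.60 normalised counts, was not among those genes, so its CV is not set against theirs. For Smgc and Mucl2 the implied dispersion was 13, a CV of 3.61, wider than for the genes above. A CV above that of Smgc was found in 0.0589% of those genes. The dispersion of 13 was also found for genes with 1 read in all, so it does not give the size of the spread of Smgc or Mucl2. Which H3K36M libraries held the reads of Agr2, Smgc and the Dcpp genes cannot be told from group levels.

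**Figure D3:**
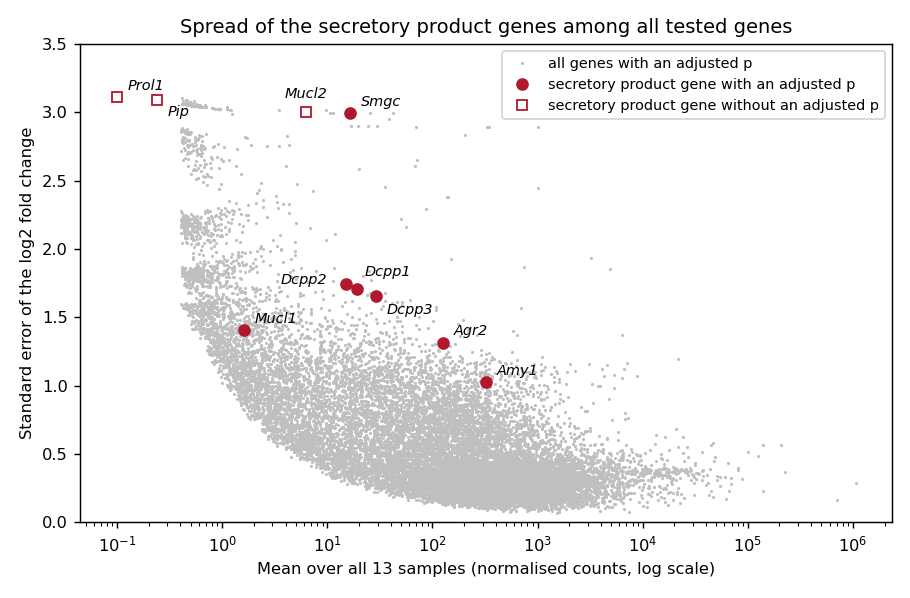
Deposited SE of the log2 fold change against the mean over all 13 samples in normalised counts (log axis), with each gene that had an adjusted p in grey and the 10 genes in red, open squares for those without an adjusted p. Agr2, Amy1 and the Dcpp genes lie along the upper edge of genes of like mean, and Smgc and Mucl2 sit at an SE of 3.0.

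Other salivary secretory genes were described by counts, beside a median log2 fold change of 0.07 over all tested genes. Of all tested genes, 1.85% were higher and 1.59% lower in H3K36M. Of 14 tested genes of that list, 7 were higher and 0 lower by the authors' deposited table, with a median log2 fold change of 3.04, and earlier results of these data were known when the list was chosen. The trefoil factor Tff2 stood at 10.22 (SE 1.93), the IgA receptor Pigr at 7.01 (SE 1.40), the airway and salivary protein Bpifa1 at 2.74 (SE 0.50) and, as given above, Muc19 at 8.12 on the log2 scale in the authors' deposited table. A further 7 genes of the list were set aside as outliers, all 7 with the higher level in H3K36M. Of all 175 genes set aside in the table, 151 had the higher level there. The list also held 4 genes with no reads, 3 with too few for an adjusted p and 1 with no row.

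Genes of the machinery that folds, glycosylates and releases such products are given next to the shares of all tested genes. Of all tested genes, 1.85% were higher, 1.59% were lower and 9.82% had an unadjusted p below 0.05 (DESeq2 by the authors). Of 32 tested genes of the secretory pathway and protein folding, the authors' deposited table had 2 higher, 0 lower and 30 not past the threshold, with a median log2 fold change of 0.31, and 8 of the 32 had an unadjusted p below 0.05. The 2 were Creb3l4, a membrane-bound transcription factor of the endoplasmic reticulum, by 2.03 (SE 0.49, adjusted p = 0.00178), and Sdf2l1, a folding factor there, by 0.89 (SE 0.28, adjusted p = 0.0418), in the authors' deposited table. Of 20 mucin glycosylation genes, 1 was higher, Gcnt3, which branches mucin glycans, by 4.44 (SE 1.24, adjusted p = 0.0141), and 0 were lower in the authors' deposited table (median 0.67). Of these 20, 18 had a log2 fold change above 0, against 9879 of all 17449 tested genes, and 7 an unadjusted p below 0.05. Of 24 genes of regulated exocytosis and its stimulus receptors, 1 was higher, Rab26, a GTPase of secretory granules, by 2.99 (SE 0.92, adjusted p = 0.0359), and 0 were lower in the authors' deposited table (median 0.24), with 3 at an unadjusted p below 0.05. Rab26 had only 5.30 normalised counts in H3K36M, against 0.665 in control, in the authors' deposited table.

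Among 17 tested transcription factors of acini and ducts, 2 were higher and 0 lower by the authors' deposited table, with a median log2 fold change of 0.38. Spdef, a factor of mucous and goblet cells, was higher by 3.44 (SE 0.85, adjusted p = 0.00262), with 62.7 normalised counts in H3K36M, against 5.79 in control, in the authors' deposited table. Bhlha15, the acinar factor also called Mist1 and named after its values were seen, was set aside as an outlier in the authors' deposited table, with 43.2 normalised counts in H3K36M, against 3.59 in control.

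**Figure D4:**
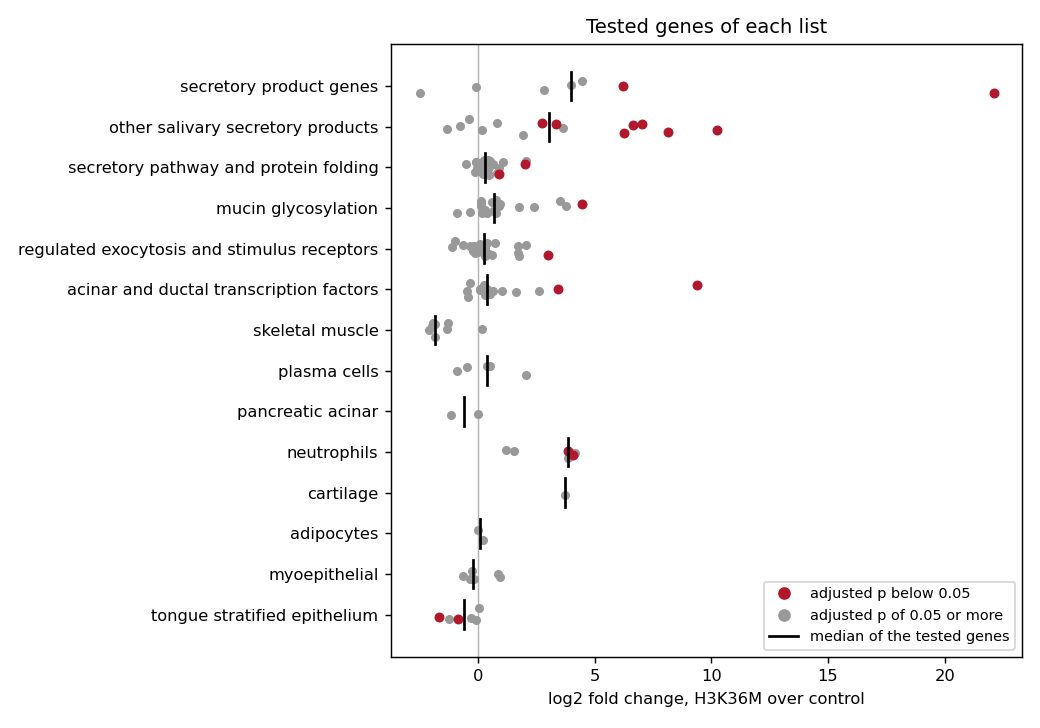
Log2 fold changes, H3K36M over control, of the tested genes of each list, with genes past an adjusted p below 0.05 in red, the others in grey and the median of each list as a black bar. Red points lie to the right in the salivary lists, and both red points of the stratified epithelium lie to the left.

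Markers of other cell types gave the following values. Of 11 pancreatic acinar genes, 4 had no reads (Cela3b, Prss1, Ctrb1 and Pnlip), and the list summed to 3.44 normalised counts in H3K36M and 3.37 in control. It had 0 calls of 2 tested, and 0 with an unadjusted p below 0.05, by the authors' DESeq2, with Cela1 at −0.01 (SE 0.94) and Cpb1 at −1.17 (SE 2.79) on the log2 scale in the authors' deposited table. Plasma cell genes had 0 calls of 5, and 2 with an unadjusted p below 0.05, by the authors' DESeq2, with Sdc1 at 0.40 (SE 0.67) and Xbp1 at 0.52 (SE 0.19) in the authors' deposited table. Xbp1 and Derl3 are also genes of secretory cells. The plasma cell list summed to 6291 normalised counts in H3K36M and 4594 in control, of which Sdc1 gave 3597 in H3K36M and 2734 in control and Xbp1 gave 2649 in H3K36M and 1851 in control. The list's other genes are named after their values were seen. Jchain, the joining chain of secreted IgA, was set aside as an outlier in the authors' deposited table, with 37.0 normalised counts in H3K36M and 4.31 in control. Derl3 stood at 2.06 (SE 0.93), Mzb1 at −0.47 (SE 1.31) and Tnfrsf17 at −0.88 (SE 1.39) on the log2 scale in the authors' deposited table. Myoepithelial genes, the contractile cells around acini, had 0 calls of 6, and 0 with an unadjusted p below 0.05, by the authors' DESeq2, with Acta2 at −0.17 (SE 0.52) and Myh11 at −0.66 (SE 1.07) in the authors' deposited table.

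The neutrophil list summed to 1805 normalised counts in H3K36M, against 141 in control. All 6 tested neutrophil genes had the higher fitted level in H3K36M. Of these, 2 passed in the authors' deposited table, S100a8 by 3.85 (SE 0.82) and S100a9 by 4.08 (SE 0.92), which keratinocytes also express. By the authors' DESeq2, 5 of the 6, all but Csf3r, had an unadjusted p below 0.05, against 9.82% of all tested genes. The other 4 neutrophil genes are named after their values were seen, and none passed. On the log2 scale, Mmp8 stood at 4.17, Retnlg at 3.83, Cxcr2 at 1.56 and Csf3r at 1.18 in the authors' deposited table. Of 6 cartilage genes, 5 were set aside as outliers, all with the higher level in H3K36M, among them Acan with 155 normalised counts in H3K36M and 0.124 in control, and Comp with 63.0 in H3K36M and 11.1 in control, in the authors' deposited table. The cartilage list summed to 277 normalised counts in H3K36M, against 12.1 in control. The cartilage genes Col10a1 and Clec3a, named after their values were seen, had 113 and 175 reads, all in 1 H3K36M library of relative depth 1.45, which is not the library of the Mucl2 reads. Adipocyte genes had 0 calls of 2, and 0 with an unadjusted p below 0.05, by the authors' DESeq2, with Fabp4 at 0.20 (SE 0.72) and Plin4 at 0.00 (SE 1.18), and the authors' deposited table set 3 more aside, each with the higher H3K36M level. These 3 adipocyte genes are named after their values were seen. Adipoq had 15.1 normalised counts in H3K36M and 0.724 in control. Cidec had 20.7 in H3K36M and 0.177 in control, and Plin1 had 4.70 in H3K36M and 0.235 in control. In the stratified epithelium list, Krt36 of the filiform papillae, at −1.65 (SE 0.31), and Krt14, at −0.87 (SE 0.26), were the 2 calls of 6 in the authors' deposited table. The part of these cell types in the results for the secretory product genes was not tested.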

How the data were processed

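PolyA RNA of tongue epithelium was read as 75-base single ends, per the labels' protocols. STAR, DESeq2 and GRCm38 (mm10) appear, with no version, in the submitters' processing notes. The sources used here name neither annotation nor counting tool. The deposited table holds normalised counts fitted by the authors as a signal for each group, with the log2 fold change and its SE, the Wald score and the p-values. For each of the 19909 genes with reads, the 7 control and 6 H3K36M levels added up to 13 means within a relative 1e-06. The authors gave an adjusted p to 17449 genes, none to 175 set aside as outliers, and none to 2285 others with reads but a low mean.

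A gene counts as higher or lower where the authors' adjusted p is below 0.05. No count test could be run on group levels. The 10 genes and all other lists were chosen with earlier results of these data known. Besides the 10, the text names up to 4 called genes per list, in order of adjusted p, or the 2 of highest mean where none was called.

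The value of 1 read in each of 13 libraries was recovered from genes read in 1 library alone. Relative depths were 0.645 to 1.77 in H3K36M and 0.728 to 1.23 in control, around a mean of 15769751 normalised counts, and these libraries were not matched to labelled samples. Read numbers are a level times the summed depths and approximate. The CV is the square root of the negative binomial dispersion that gives the deposited SE at the fitted levels. Calculations used Python 3.11.15, pandas 2.3.3, numpy 2.4.6 and scipy 1.17.1 and were tested on simulated data. Transcripts and positions are from GENCODE M21. The alternatives were other thresholds and adjustments, p for set-aside genes, a centred and scaled statistic, other scalings, pseudocounts of 1 and 10, and bounds for genes with a group at 0. The GO tables were not used here. The values of 1 called gene are not reported here.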

Additional observations from a re-analysis of the deposited data

How the results depend on the processing

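The count of 2 called genes, Agr2 and Smgc, stayed at 2 with thresholds of 0.01 and 0.1, with adjustment over every gene with a p, with p from the statistic for set-aside genes and with the statistic centred and scaled. It was 1 when p was adjusted over genes with a mean of at least 50, where Smgc was not tested. It was also 1 with Smgc at its bound over the SE of the fit to a group at 0, which is no test of Smgc. In the settings that kept the count at 2, Smgc was called on its fitted value for a group at 0. No alternative called a gene of the list lower. Over the other lists together, 15 genes were higher and 2 lower. These became 9 higher at a mean of at least 50, where fewer genes were tested, and 1 lower at the threshold of 0.01. They became 20 higher at the threshold of 0.1, 21 higher with p from the statistic, 3 of them cartilage genes, and 18 higher and 3 lower with the statistic centred and scaled. The ratio of the summed levels, 1.01, became 28.2 without Amy1. With pseudocounts of 1 and 10, the log2 difference of Smgc was 5.19 and 2.19. With a pseudocount of 10 it was 1.84 for Dcpp2, 2.32 for Dcpp3, 1.20 for Mucl2 and 4.36 for Agr2. Setting the median fold change of all tested genes (0.07) to 0 changed no call or direction among the 10 genes. Leaving out each replicate was not run, since the values are group levels. No paired analysis was possible because the values are group levels, and the labels number no replicates.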
